A study of Arabidopsis thaliana with 20 samples.

Results

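Open chromatin of dark-grown Arabidopsis thaliana seedlings was compared with that of dark-grown seedlings given 24 h in a light/dark cycle, called 24 h of light below. A region was gained when a peak of the 24 h list shared no base with a peak of the dark list, and lost when a dark peak shared no base with a 24 h peak. Of 26712 nuclear peaks after 24 h, 3152 were gained, and of 28917 in the dark, 5349 were lost, so 8501 of the 55629 peaks in both lists were members. Peaks of the whole series merge into 47780 regions.

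All plants were 7-day-old Col-0 seedlings of the INTACT line UBQ10:NTF::ACT2:birA, in which UBQ10 drives a nuclear tag and ACT2 the biotin ligase that marks it, so that nuclei can be caught through biotin. Whole seedlings were used, so fewer nuclei of a cell type and less open chromatin per nucleus cannot be told apart. Open regions were found with DNase I-seq, which sequences the short fragments that the nuclease DNase I (45 units for 3 min at 25 °C) cuts out of accessible DNA. The dark group was kept without light at 22 °C for 16 h and 20 °C for 8 h of each day, and the other group spent its last 24 h under 16 h of light and 8 h of dark at the same temperatures, with no hour of harvest stated. Lists after 30 min and 3 h of light, and of seedlings raised in the light/dark cycle (LD control, 3 h after a 0.5% ethanol spray, and after 30 min at 45 °C), served only to ask where else a member was seen. Each condition has 1 library, deposited under 2 sample entries with identical files, so no difference below has a replicate check or a p-value. Intervals are 95% Wilson intervals and cover counting error only.

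Seedlings that germinate in darkness follow skotomorphogenesis: the hypocotyl elongates, the apical hook stays closed and plastids lack chlorophyll, under growth-promoting bHLH factors called PIFs and the COP1/SPA ubiquitin ligase, which removes the bZIP activator HY5. Light received by phytochromes and cryptochromes inactivates PIFs and COP1/SPA, HY5 accumulates, elongation stops and chloroplasts form. Light signals also set the circadian clock, whose morning MYB-like factors CCA1 and LHY bind the evening element.

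Sequences are shown first for gained promoter peaks of genes that the results below turn on, from the genome of the TAIR10 build, top strand, 5′ to 3′. CDC6 (AT2G29680, a replication licensing factor) held its gained peak at chr2:12688821-12688970 and GN (AT1G13980, which guides vesicle traffic) at chr1:4787841-4787990; capitals mark the evening element, AAATATCT on either strand, the motif with the largest ratio of its share in gained to lost peaks among those described below. The gained peak of HYH (AT3G17609, the closest homologue of HY5) lay at chr3:6023661-6023810 and that of LHCB1.1 (AT1G29920, a light-harvesting chlorophyll-binding protein) at chr1:10476041-10476190, with the ACGT core of bZIP sites in capitals. In TT4 (AT5G13930, chalcone synthase, which starts flavonoid synthesis) capitals mark the G-box CACGTG, a site of bHLH and bZIP factors, in the gained peak at chr5:4488221-4488370.
CDC6: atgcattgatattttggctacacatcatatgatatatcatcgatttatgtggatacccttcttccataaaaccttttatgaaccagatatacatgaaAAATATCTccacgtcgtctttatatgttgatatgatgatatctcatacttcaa
GN: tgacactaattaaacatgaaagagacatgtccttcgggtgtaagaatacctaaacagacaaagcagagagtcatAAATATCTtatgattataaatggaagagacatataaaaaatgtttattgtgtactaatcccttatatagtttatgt
HYH: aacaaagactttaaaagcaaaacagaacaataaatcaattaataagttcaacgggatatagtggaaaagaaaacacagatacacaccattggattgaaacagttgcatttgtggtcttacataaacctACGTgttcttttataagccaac
LHCB1.1: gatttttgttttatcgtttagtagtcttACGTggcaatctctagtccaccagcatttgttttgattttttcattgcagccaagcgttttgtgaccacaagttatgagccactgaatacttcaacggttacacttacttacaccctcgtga
TT4: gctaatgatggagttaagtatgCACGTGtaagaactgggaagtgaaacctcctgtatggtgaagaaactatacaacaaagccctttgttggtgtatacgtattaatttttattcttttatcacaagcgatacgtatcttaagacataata

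Lost promoter peaks are shown for genes of growth. SAUR24 (AT5G18080, chr5:5983201-5983350), SAUR29 (AT3G03820, chr3:977501-977650) and SAUR63 (AT1G29440, chr1:10305261-10305410) encode small auxin-induced proteins, of which the SAUR19 group and SAUR63 promote cell expansion. PAR1 (AT2G42870, chr2:17838281-17838430) encodes an atypical HLH protein that restrains PIF-type factors. Capitals mark the PBE-box CACATG, an E-box that PIFs bind, on either strand; the PAR1 peak held 3.
SAUR24: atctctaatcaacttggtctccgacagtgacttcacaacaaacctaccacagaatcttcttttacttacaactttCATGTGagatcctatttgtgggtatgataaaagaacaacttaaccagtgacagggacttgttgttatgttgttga
SAUR29: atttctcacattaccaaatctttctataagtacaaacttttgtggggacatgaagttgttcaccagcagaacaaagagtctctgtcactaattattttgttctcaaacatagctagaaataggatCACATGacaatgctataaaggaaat
SAUR63: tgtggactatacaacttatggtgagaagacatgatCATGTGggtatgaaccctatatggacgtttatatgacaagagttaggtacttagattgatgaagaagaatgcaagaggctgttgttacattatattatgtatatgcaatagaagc
PAR1: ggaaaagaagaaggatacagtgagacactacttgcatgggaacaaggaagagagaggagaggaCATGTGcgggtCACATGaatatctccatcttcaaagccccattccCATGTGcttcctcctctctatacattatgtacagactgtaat

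Gained peaks made up 11.8% of the 24 h list (11.4 to 12.2%) and lost peaks 18.5% of the dark list (18.1 to 19.0%). Retained peaks numbered 23560 in the 24 h list and 23568 in the dark list, so the excess of lost over gained peaks is the difference in length of the lists and says nothing more; with both lists cut to the same length by signal there were 3976 gained and 3968 lost peaks. Both sets were weak. Signal, the authors' whole-number peak value, is read here only within its own list. It had a median of 76 among gained peaks (41 to 857) against 149.0 in the whole list after 24 h, and of 83 among lost peaks (36 to 1732) against 148 in the dark list. In the lowest signal decile 46.2% of 24 h peaks were gained and 59.6% of dark peaks were lost, and in the highest 2.69% and 3.50%. Only 469 gained and 888 lost peaks stood in the upper 50% of their lists by signal.

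**Figure D1:**
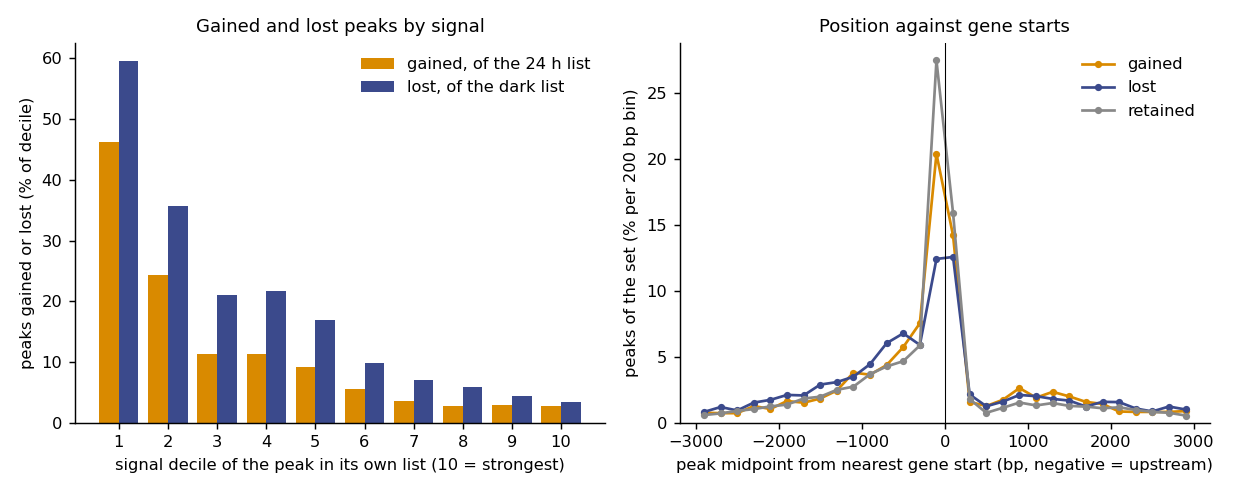
Left, share of each signal decile of the 24 h list that was gained and of the dark list that was lost, in percent, with decile 10 the strongest. Right, share of gained, lost and retained peaks per 200 bp bin of distance between the peak midpoint and the nearest gene start. Shares of gained and lost peaks fall from 46.2% and 59.6% in the weakest decile to 2.69% and 3.50% in the strongest, and gained peaks stand higher than lost peaks just upstream of gene starts.

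Part of the members lay close to a peak of the other list. A dark peak lay within 150 bp of 690 gained peaks (21.9%), and a 24 h peak within 150 bp of 978 lost peaks (18.3%). Among the 72 gained peaks in the top 10% by signal, 64 (88.9%) had a dark peak within 150 bp, and 50 of the 72 (69.4%) had a lost peak that close. Among the 102 strongest lost peaks 79 (77.5%) had a 24 h peak that close and 35 (34.3%) a gained one. Strong gained peaks thus mostly lay beside dark peaks, while of all gained peaks 16.8% had a lost peak within 150 bp and of all lost peaks 10.02% a gained one. Whether such a pair is a shifted site, neighbouring sites or another placing of a 150 bp window was not tested. At the other side of the threshold, 630 retained 24 h peaks shared 30 bases or fewer with a dark peak.

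The strongest gained peak was in such a pair. IVD (AT3G45300, isovaleryl-CoA dehydrogenase, an enzyme of leucine breakdown that is active in starvation) gained a peak with its midpoint 192 bp upstream of its start (signal 857, percentile 99.6 of the 24 h list) and lost one 32 bp upstream (signal 520, percentile 95.9 of the dark list); their edges lay 11 bp apart. BZIP1, a low-energy response factor, gained a peak 874 bp upstream (signal 715) and lost one 694 bp upstream (signal 562). ZAT12, a stress-responsive zinc finger factor, gained one 1019 bp upstream (signal 702) and lost one at 819 bp (signal 551). In these 3 genes a strong lost peak had a strong gained peak beside it. BZIP1 and ZAT12 each lost a further peak, 274 bp upstream (signal 217) and 101 bp downstream (signal 520). RAV1, a growth-restraining factor, ECA4, WRKY57, AT1G22190, ABO3, AT2G30100, BTI3, AT1G65510 and AT4G17800 also had gained peaks at percentiles of 97.2 to 98.8, within 91 bp of a dark peak. AT5G24870 (signal 697) lay 171 bp from a dark peak. At AT3G57020 (signal 545) the nearest dark peak lay 2151 bp away, and its gained peak was in all 5 other lists.

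The strongest of all lost peaks lay outside promoter windows. Among them were peaks in an intron on chromosome 1 (from 15083741, signal 1732) and in a 3′ UTR on chromosome 2 (from 2541, signal 905). Another stood between genes on chromosome 5 (from 11727661, signal 813), 91097 bp from the nearest gene start. It lies in the bin with the highest lost share, given below. Whether the sequence of these peaks occurs once in the genome was not counted, unlike for peaks at listed or named genes. The strongest lost promoter peaks lay at a mixture of genes. AT5G08139 lost the strongest, 41 bp downstream of its start (signal 737, percentile 98.95 of the dark list), with the nearest 24 h peak 311 bp away and a peak in all 5 other lists. UBQ10, a polyubiquitin gene whose promoter also drives the nuclear tag in this line, lost a peak 222 bp upstream (signal 681), as strong as that lost by RAV1, and a 24 h peak lay 111 bp away; reads from the native gene and the transgene were not told apart here. The corepressor genes TPL (signal 612) and TPR2 (signal 663), the kinase gene MPK9 (signal 599), AT3G19680 (signal 577), GATA1 (signal 555) and GDH2, which encodes glutamate dehydrogenase (signal 526), were also among the 15 strongest. TPR2 also gained a peak 464 bp upstream (signal 447).

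Gained peaks lay nearer to gene starts than lost peaks, and both lay farther away than retained ones. The midpoint of 56.7% of gained peaks (55.0 to 58.5%) stood in a promoter window, which runs from 1000 bp before a gene start to 200 bp past it, against 48.9% of lost (47.5 to 50.2%) and 62.4% of retained 24 h peaks (61.8 to 63.0%); these windows cover 25.0% of the nuclear genome. The first 200 bp upstream held 20.4% of gained, 12.4% of lost and 27.5% of retained peaks. Median distances to the nearest start were 577.5, 839 and 366 bp. Between genes stood 25.8% of gained, 32.0% of lost and 24.9% of retained peaks, in coding sequence 4.54%, 6.11% and 2.301%, in introns 5.14%, 4.11% and 3.74%, and in 3′ UTRs 4.28%, 4.34% and 3.03%. Weak peaks alone gave the same order: in the lower 50% by signal, 56.5% of gained, 48.5% of lost and 61.6% of retained 24 h peaks stood in promoter windows. From decile 1 to decile 5 the gained share fell from 46.2% to 9.25% and the lost share from 59.6% to 17.0%. The sets thus still differ in signal within the lower 50%, here and for the motifs below, and position at equal signal was not tested.

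Gained and lost peaks were spread over the genome. Gained shares ran from 11.2% on chromosome 3 to 12.7% on chromosome 2, and lost shares from 17.9% on chromosome 4 to 19.3% on chromosome 2. Over 111 bins of 1 Mb the gained share ran from 5.88% to 20.8% (median 11.8%) and the lost share from 8.93% to 40.9% (median 18.21%). The highest lost share was on chromosome 5 between 11000001 and 12000000. There 36 of 88 dark peaks were lost and 5 of the 57 peaks after 24 h gained. In 103 bins lost peaks outnumbered gained ones, a count that carries the difference in length of the lists. Some short stretches changed together. At the neighbours AT3G57010 and AT3G57020 on chromosome 3 (21096361 to 21101210) the dark list had 0 peaks and the 24 h list 5, with 2 after 30 min, 5 after 3 h and 5 in the LD control. Around BRG3 on chromosome 3 (4120161 to 4127990) 8 dark peaks were lost and the count went from 11 to 4, with 9 after 30 min, 7 after 3 h and 10 in the LD control. At RAX2, AT2G36895 and MEMB11 on chromosome 2 (15485561 to 15494510) the count went from 7 to 1, with 5 in the LD control.

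Of 27444 protein-coding genes, 2044 (7.45%) had a gained peak touching their promoter window and 3022 (11.0%) a lost one; 492 had both. A peak that touches the windows of neighbouring genes counts for each of them. The gained peaks of TT4, F3H, ELIP1, CHLI1, FHY3 and PSAH2 also touch a neighbour's window. So do the lost peaks of PHYB, PCB2, MCCA and PRR7, and such sharing is not named at every gene below. Genes with at least 1 promoter peak numbered 16669 in the dark and 16561 after 24 h. Of the 10775 genes with no dark promoter peak 1019 (9.46%) had one after 24 h, and of the 16669 with one 1127 (6.76%) had none. A gene can lose only a peak it has, and of genes with a dark promoter peak 18.1% lost at least 1. These shares are the background against which the lists of known genes below are read, with 29 lists of 453 genes.

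**Figure D2:**
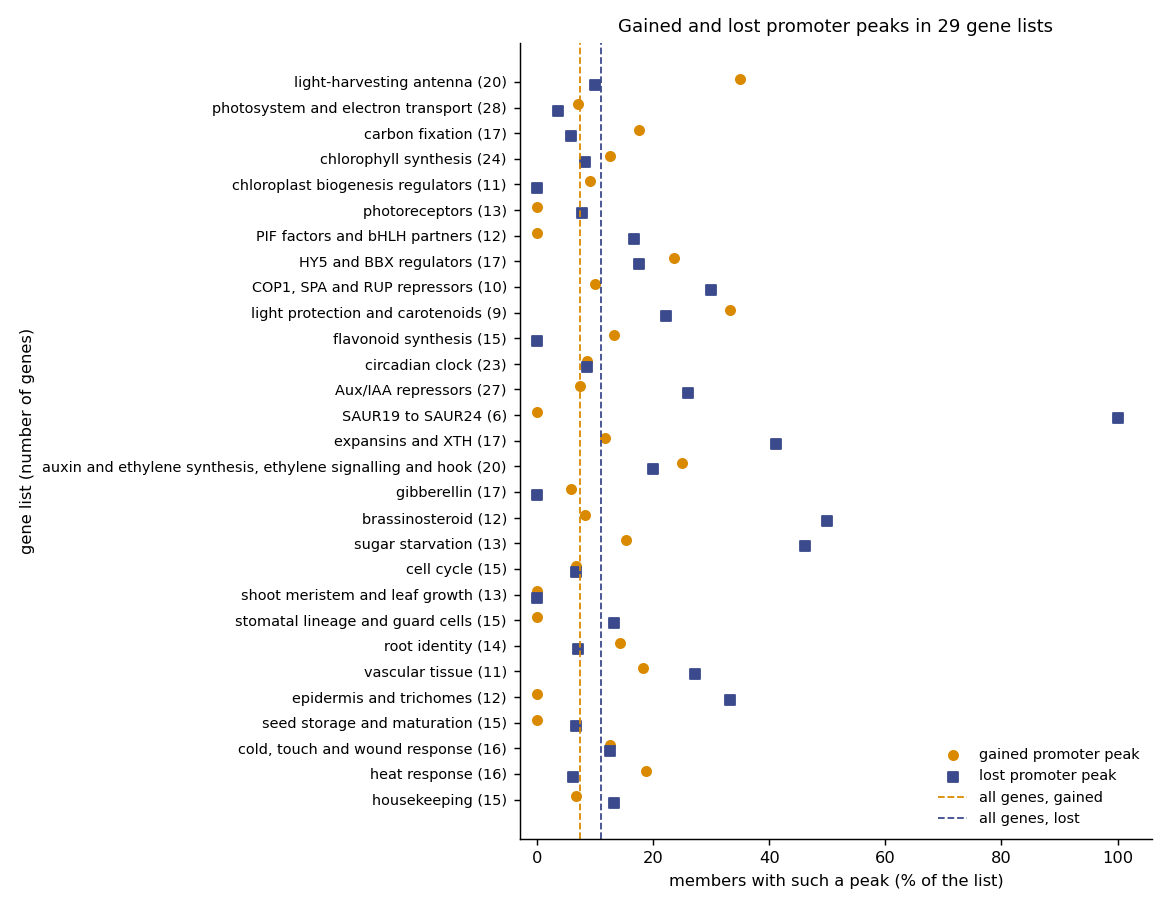
Percent of the members of 29 gene lists with a gained (circles) or lost (squares) promoter peak after 24 h of light, with the number of genes of each list in brackets. Dashed lines mark all protein-coding genes, 7.45% gained and 11.0% lost. Light-harvesting antenna genes stand farthest right for gained peaks and SAUR19 to SAUR24 for lost peaks.

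Light-harvesting antenna genes, whose products bind chlorophyll around the photosystems, gained promoter peaks at 7 of 20 members and lost them at 2. Members with a promoter peak numbered 9 in the dark, 12 after 30 min, 18 after 3 h, 16 after 24 h, 19 in the LD control, and all 20 in the sprayed and the heat-shocked seedlings. The count after 24 h lay between those of the dark and of the LD-grown lists, which are longer lists. All 7 gained genes had no promoter peak in the dark: LHCB1.1, LHCB1.3, LHCB1.4, LHCB1.5, LHCB2.1, LHCB3 and LHCA5, mostly genes of the main trimeric antenna of photosystem II. These 7 were 7 of the 11 members without a dark peak, against 9.46% of all such genes.

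All antenna peaks gained were weak. LHCB2.1 (AT2G05100) gained a peak 55 bp upstream of its start (signal 109, percentile 32.5) and LHCB3 (AT5G54270) one 110 bp downstream (signal 97, percentile 27.1). LHCB1.4 and LHCB1.5 are neighbours and share their 2 gained peaks (signals 83 and 79). LHCB1.1, shown above, LHCB1.3 and LHCA5 had signals of 61, 51 and 54. None was in the upper 50% by signal, none had a dark peak within 1000 bp, and each was also a peak in all 3 LD-grown lists. LHCB1.2, LHCB2.2, LHCB2.3 and LHCB5 had no promoter peak in the dark or after 24 h and at least 1 in each LD-grown list. LHCB4.3 and LHCA2 lost a peak 613 and 939 bp upstream and had others in both lists.

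Most other photosynthesis genes already had a promoter peak in the dark. Of 28 genes of the photosystems and electron transport 26 had one in the dark and all 28 after 24 h. FNR2 (ferredoxin-NADP reductase, signal 70) and PSAH2 (a photosystem I subunit, signal 61) gained one where the dark list had none, and PETE1, a plastocyanin gene, lost 2 of 3. Among 17 carbon fixation genes 3 gained and 1 lost: RBCS1A, the main gene of the small Rubisco subunit (152 bp downstream, signal 157, in every list but the dark one), FBA2 (signal 138) and GAPB (signal 55) gained, and RBCS2B lost its 1 dark peak. RCA, which encodes Rubisco activase, had 1 peak in all 7 lists.

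Chlorophyll synthesis genes gained at 3 of 24 members and lost at 2. CHLI1, a subunit of the magnesium chelatase that commits porphyrin to chlorophyll, had 0 promoter peaks in the dark and 1 in each of the 6 other lists (46 bp upstream, signal 98). GSA2 gained 1 and lost 2, and PCB2, which reduces a vinyl group of chlorophyllide, lost its 1 peak. The third gained peak, at HEMB1, is uncertain: 30.4% of its 36-base words occur once in the genome. HEMA1, CHLH and the light-dependent reductase genes PORB and PORC had no gained or lost peak, and PORA had no peak in either list. Among 11 regulators of chloroplast formation GNC, a GATA factor, gained a peak 85 bp upstream (signal 114, percentile 34.8). Its paralogue CGA1 and the activator gene GLK1 had no promoter peak in the dark or after 24 h, and GLK2 and SIG5 had 1 in both.

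The list of HY5 and the B-box (BBX) regulators that work with it also holds other light-signalling genes, among them FHY3 and FHL. Of its 17 members 4 gained a promoter peak and 3 lost one, and those with a promoter peak went from 15 to 17. HYH (chromosome 3, shown above) had 0 peaks in the dark, 0 after 30 min and 1 in each of the 5 other lists, 109 bp upstream of its start (signal 286, percentile 81.2 of the 24 h list); the neighbour RBL14 shares it. BBX25, a negative regulator of HY5 action, went from 0 to 1 (68 bp downstream, signal 305, percentile 83.6). BBX22, a positive regulator of light responses, gained a peak 548 bp upstream (signal 520, percentile 96.2), 71 bp from a dark peak. FHY3, a transposase-derived activator of phytochrome A signalling, gained one 339 bp upstream (signal 131) that no list besides the 24 h one held. HYH, BBX25 and BBX22 were thus in the upper 50% by signal, unlike the antenna genes. BBX28 (signal 529), BBX29 (signal 186) and FHL (signal 109) lost 1 peak each, and HY5 had 1 promoter peak in all 7 lists.

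Photoreceptor genes had 0 gained and 1 lost of 13: PHYB, the main red-light phytochrome, lost a peak 801 bp upstream (signal 221, percentile 70.1) that all 5 other lists held. PHYA, CRY1 and CRY2 kept their promoter peak counts of 2, 2 and 1. Among 12 PIF factors and bHLH partners 0 gained and 2 lost. PIF1, PIF3, PIF4 and PIF5 had 1, 1, 2 and 2 peaks in both lists, as did HFR1 with 2, and PIL1 had none. PAR1 lost both its promoter peaks, 737 bp (signal 148) and 57 bp upstream (signal 94), and SPT lost its 1 peak 148 bp upstream (signal 75). The PAR1 and SPT peaks were present in all 6 lists other than the 24 h one.

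Repressors of the COP1/SPA complex and the UV response lost promoter peaks at 3 of 10 members and gained them at 1. SPA1 lost 1 of its 2 peaks, 487 bp upstream (signal 671, percentile 98.4 of the dark list, shared with AT2G46360), and a 24 h peak lay 71 bp away. SPA3 (signal 114) and SPA4 (signal 80) lost weaker ones, and SPA4 gained one 50 bp downstream of its start (signal 147). At SPA3 the nearest 24 h peak lay 51 bp away, and with a distance of 150 bp required 1 of 10 lost and 1 gained. COP1 had 1 promoter peak in all 7 lists.

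Light protection genes gained at 3 of 9 members and lost at 2. ELIP2, an early light-induced protein of thylakoids, had 0 peaks in the dark and 1 after 24 h, 607 bp upstream (signal 65). ELIP1 gained a peak 546 bp upstream (signal 197, percentile 65.2) and lost one 1066 bp upstream (signal 74). OHP1, a single-helix protein of the same family, gained its 1 peak 56 bp upstream (signal 81). ABA1, zeaxanthin epoxidase, lost 1 of 2 (signal 238). Flavonoid genes, whose products screen ultraviolet light, gained at 2 of 15 and lost at 0. TT4 gained 2 peaks, 181 bp upstream (signal 138, in the 24 h list only; sequence above) and 59 bp downstream (signal 134, also after 3 h and in the LD and spray controls), and its promoter peaks went from 2 to 4. F3H, flavanone 3-hydroxylase, gained a peak 597 bp upstream (signal 193, percentile 64.1) that was missing from the dark list alone.

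Among the lists of growth genes, SAUR19 to SAUR24 had the highest share of lost peaks. All 6 of SAUR19 to SAUR24, a cluster on chromosome 5 (AT5G18010 to AT5G18080) whose products drive cell expansion, lost their 1 promoter peak and gained 0. Members with a promoter peak numbered 6 in the dark, 4 after 30 min, 0 after 3 h, 0 after 24 h, 6 in the LD control, 3 after the spray and 6 after heat shock. The list was thus empty after 3 h and 24 h and full in the LD control. The lost peaks had signals of 118 (SAUR19), 125 (SAUR20), 128 (SAUR21), 77 (SAUR22 and SAUR23, which share it) and 135 (SAUR24), at percentiles of 15.8 to 45.1 of the dark list, and the nearest 24 h peak lay at least 2731 bp away. Copies in this cluster are alike in sequence, but 94.8% of the 36-base words of the SAUR22 peak and all those of the other 4 peaks occur once in the genome.

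**Figure D3:**
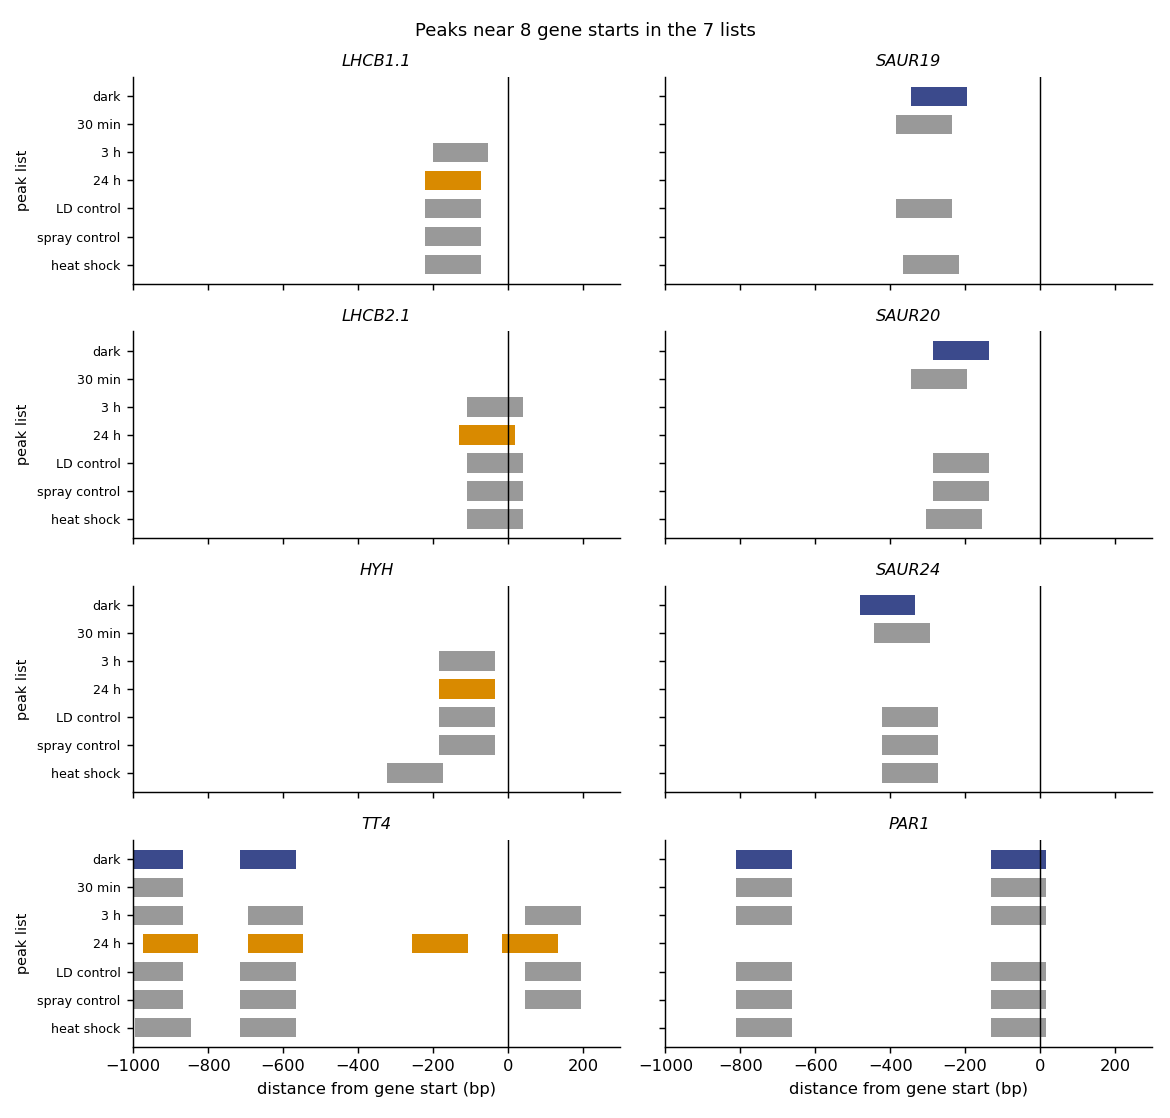
Peaks of the 7 lists between 1000 bp upstream and 300 bp downstream of 8 gene starts, drawn to scale with the start at 0 and transcription to the right; dark peaks are blue, 24 h peaks orange and peaks of the other lists grey. LHCB1.1, LHCB2.1 and HYH have no peak in the dark or after 30 min and 1 after 24 h, SAUR19, SAUR20 and SAUR24 have 1 in the dark and 0 after 3 h and 24 h, PAR1 lacks its 2 peaks in the 24 h list alone, and TT4 goes from 2 peaks to 4.

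The wider SAUR-like family, a set taken from product names and chosen after these counts were seen, showed the same. Of 78 members 33 (42.3%) lost a promoter peak and 3 gained one, and 23 of the 54 with a dark promoter peak had none after 24 h, against 6.76% of all such genes. Members with a promoter peak numbered 54 in the dark, 51 after 30 min, 41 after 3 h, 31 after 24 h, 59 in the LD control, 52 after the spray and 56 after heat shock. The 24 h list had the fewest, and over all genes it had 16561 against 16669 in the dark. The 33 genes shared 32 distinct lost peaks, of which 21 were peaks after 30 min, 8 after 3 h and 26 in the LD control. They were weak, with a median percentile of 19.1 of the dark list, and 4 of the 33 genes lost a peak of the upper 50% by signal. A PBE-box stood in 17 of the 32 (53.1%, 36.5 to 69.1%), against 14.4% of all lost peaks. Many of the 32 lie at neighbouring gene copies, so they are not independent counts as the interval takes them to be. Retained peaks of the same family were not counted for the box, so whether it is particular to the lost ones was not tested.

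These losses came in genomic clusters besides SAUR19 to SAUR24. SAUR26, SAUR27, SAUR28 and SAUR29 on chromosome 3 each had 1 dark peak (signals 104, 73, 73 and 74; SAUR27 and SAUR28 share theirs) and 0 after 3 h and 24 h, with at least 1 in the LD control. In the chromosome 1 cluster, SAUR63 (signal 126), SAUR68 (signal 82), AT1G29420 (signal 60), AT1G29430 (signal 83), AT1G29450 (signals 78 and 73) and AT1G29500 (signal 169) lost peaks. Of the 16 families counted, the next highest share was in bHLH factors, with 23 of 119 (19.3%) losing and 9 gaining a promoter peak.

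Aux/IAA repressors, cell wall genes and brassinosteroid genes had more members with lost than with gained peaks, as all genes did (11.0% and 7.45%). Gibberellin genes, cell cycle genes, and shoot meristem and leaf growth genes did not. Aux/IAA repressors of auxin signalling lost at 7 of 27 and gained at 2. With 75 shared bases required for overlap 11 lost and 7 gained, and in the upper 50% by signal 0 and 0. IAA3 (986 bp upstream, signal 125), IAA8, IAA14, IAA27 and IAA17 lost peaks of 82 to 140, IAA14 and IAA17 gained weak ones (signals 107 and 66), and IAA19 had neither. Expansins and xyloglucan-modifying XTH enzymes, which loosen or remodel the cell wall, lost at 7 of 17 and gained at 2, and members with a promoter peak went from 13 to 9. XTH18 lost the strongest (104 bp upstream, signal 337, percentile 86.2) and gained one beside it (signal 252). XTH17, XTH19, EXPA2, EXPA10 and XTH33 lost peaks at percentiles of 0.173 to 30.3; at XTH17 60.9% of 36-base words are single-copy. With lists of equal length 3 of 17 lost, with the narrow window of 500 bp before to 100 bp past the start 4, and in the upper 50% by signal 1. The gained peaks were those of XTH18 and of EXPA8 (signal 149.0, 230 bp upstream, 11 bp from a dark peak), and with a distance of 150 bp required 0 of 17 gained and 5 lost.

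Brassinosteroid genes, for a steroid hormone of elongation, lost promoter peaks at 6 of 12 members and gained them at 1. The receptor gene BRI1 went from 3 peaks to 1, with losses 122 bp (signal 319, percentile 84.5) and 922 bp upstream (signal 151), and a 24 h peak 31 bp from the first. CPD, a synthesis enzyme, went from 2 to 0 (signals 117 and 69). The kinase gene BIN2 (signal 321), the transcription factor gene BZR1 (signal 102) and BEE1 lost 1 each. BAS1, an inactivating enzyme under light control, lost a peak 8 bp upstream (signal 233) and gained one 208 bp upstream (signal 196). With a distance of 150 bp required, 4 of 12 lost and 0 gained, and 3 lost both in the narrow window and in the upper 50% by signal. Gibberellin genes lost at 0 of 17 and gained at 1, GA2OX4.

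Auxin and ethylene synthesis, ethylene signalling and hook genes changed in both directions, with 5 of 20 gaining and 4 losing. The ethylene receptor gene ETR1 (signal 77), the kinase gene CTR1 (signal 108), the factor gene EIL1 (signal 123) and YUC2, of auxin synthesis (signal 66), gained peaks. ERF1 (signal 63) and WAG2, a kinase gene of hook opening (signal 82), lost their 1 peak, ACS5 lost 1 of 2 (signal 92) and ACS8 gained 1 and lost 1. HLS1, required for the hook, had no promoter peak in either list.

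Sugar starvation genes, which are active in prolonged darkness, lost promoter peaks at 6 of 13 members and gained them at 2. All 13 had a promoter peak in all 7 lists, and of all genes with a dark promoter peak 18.1% lost at least 1. All 6 genes lost a peak in the upper 50% by signal, against 0 of the SAUR19 to SAUR24 genes. They were IVD and BZIP1, described above with their gained peaks, DIN2 (signal 297, percentile 82.0), MCCA (methylcrotonyl-CoA carboxylase, signal 260), DRM2 (signal 199) and DIN10 (signal 148). The dark peak of DIN2, 95 bp downstream of its start, was in no other list. With a distance of 150 bp required, 3 of 13 lost and 0 gained. ASN1, a classic dark-induced asparagine synthetase, and DIN1 had 2 and 1 promoter peaks in each of the 7 lists.

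Clock genes gained at 2 of 23 members and lost at 2, near the shares of all genes. CDF1 gained a peak 96 bp downstream of its start (signal 143), RVE8 gained 1 and lost 1, and PRR7 lost 1 (signal 154). CCA1, LHY, TOC1, PRR9 and GI had none gained or lost. Among further lists, heat response genes gained at 3 of 16 and lost at 1, cold, touch and wound response genes at 2 and 2 of 16, cell cycle genes at 1 and 1 of 15, and seed storage and maturation genes at 0 and 1 of 15. Housekeeping genes gained at 1 of 15 (ACT2, signal 129) and lost at 2 (UBQ10 and TUB3). ACT2 drives the biotin ligase of the line, and its gained peak lay 1055 bp upstream, 51 bp from a dark peak.

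Promoter peaks of genes that mark cell types varied little in number. Members with a promoter peak went from 6 to 7 of 14 for root identity and 9 to 8 of 15 for stomatal lineage and guard cells. They went from 4 to 3 of 11 for vascular tissue and 7 to 6 of 12 for epidermis and trichomes. The list of shoot meristem genes, which also holds leaf growth genes, stayed at 5 of 13. Epidermis genes lost peaks at 4 of 12, among them ATML1 (signal 116), and vascular genes at 3 of 11, among them SUC2. A share of cell types in either library, and its part in the gained and lost peaks, was not tested.

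Many members were not particular to their list. Of gained peaks 39.1% were peaks after 30 min, 56.3% after 3 h and 47.1% in the LD control, against 96.0%, 94.4% and 89.4% of retained peaks. The 24 h comparison shares no library with the 30 min, 3 h and LD control lists, whose peaks did not enter the choice of members. Neither the 30 min nor the 3 h list held 1025 gained peaks (32.5%), 894 (28.4%) were seen after 3 h and not 30 min, and 881 (28.0%) at both times. All 5 other lists held 387 gained peaks (12.3%), missing from the dark list alone, and none held 625 (19.8%). Lost peaks were found more often elsewhere: 60.0% after 30 min, 61.1% after 3 h and 63.9% in the LD control. All 5 other lists held 1506 lost peaks (28.2%), which were missing from the 24 h list alone, the shortest of the 7, and none held 548 (10.2%).

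**Figure D4:**
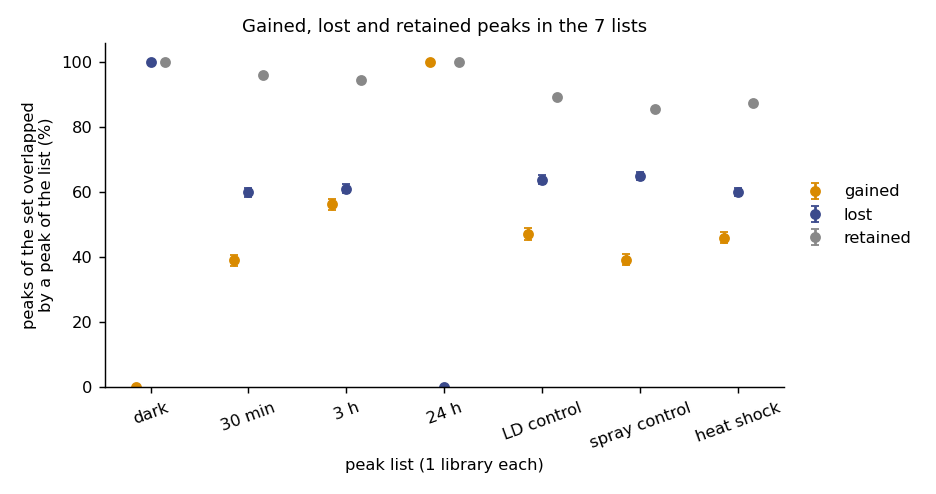
Percent of gained, lost and retained peaks that share at least 1 base with a peak of each of the 7 lists, 1 library each, with 95% Wilson intervals, most smaller than the symbols. By construction gained peaks stand at 0 in the dark and lost peaks at 0 after 24 h; between these, gained peaks are highest after 3 h (56.3%) and lost peaks lie between 60.0% and 64.9% in the 5 other lists.

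Sequence composition differed between the sets. Mean GC content was 32.7% in gained peaks, 36.9% in lost peaks and 36.1% in retained 24 h peaks, against 31.9% in the 150 bp upstream of every gene start. Retained regions themselves read 36.8% in their dark peaks, so the lists differ slightly in GC at shared regions too, and a part of library preparation in the difference was not tested. Each peak was read over 150 bp for motifs in either orientation. For the evening element, CCA1 site, PBE-box, G-box, site II element and TATA box, shares are given beside those within the 30 to 35% GC range.

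The evening element AAATATCT was in 127 gained peaks (4.03%, 3.40 to 4.77%), 66 lost peaks (1.23%, 0.971 to 1.57%) and 2.11% of retained 24 h peaks, and in 2.02% of all peaks of both lists. With its letters reversed, TCTATAAA, the shares were 1.59% and 1.29%. The reversed letters contain the TATA box TATAAA, itself more frequent in gained than in lost peaks, so they are not a neutral comparison. Within 30 to 35% GC the element was in 3.08% of gained (2.23 to 4.26%), 1.43% of lost and 2.48% of retained peaks, where the gained and retained intervals overlap. Below 30% GC it was in 6.65% of gained (5.28 to 8.35%), 2.65% of lost and 3.79% of retained peaks (3.12 to 4.59%), where they do not. From 35 to 40% GC gained and retained peaks had 3.01% and 1.83%, and above 40% GC 1.37% and 1.21%, with overlapping intervals. In the lower 50% by signal the shares were 3.62%, 1.01% and 1.88%. Of the 127 gained peaks 78 had their midpoint in a promoter window and 64 (50.4%) were peaks in the LD control. CDC6 had the strongest in a promoter window (276 bp upstream, signal 417, percentile 92.3), then AT2G36410 (signal 297), AT4G33920 (signal 289), ERD10, a cold-responsive dehydrin gene (signal 231), and GN (signal 214). A dark peak lay 111 bp from that of CDC6, 11 bp at AT2G36410, 31 bp at AT4G33920 and 51 bp at ERD10. At GN the nearest lay 351 bp away. CDC6, AT2G36410 and AT4G33920 also lost a promoter peak. The related CCA1 site AAAAATCT was in 2.82% of gained, 1.48% of lost and 1.93% of retained peaks. In the 150 bp upstream of every gene start its share was 3.8%. Within 30 to 35% GC it was in 3.52% of gained (2.60 to 4.76%), 2.26% of lost and 2.36% of retained peaks (2.04 to 2.73%). There the gained and retained intervals overlap, and from 35 to 40% GC gained peaks stood lower, with 1.11% against 1.78%.

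The PBE-box CACATG was in 14.4% of lost peaks (13.4 to 15.3%), 8.57% of gained (7.64 to 9.59%) and 10.8% of retained 24 h peaks, and in 11.2% of all peaks. With reversed letters, GTACAC, the shares were 5.05%, 5.27% and 4.99%. Within 30 to 35% GC the box was in 15.2% of lost, 8.46% of gained and 10.01% of retained peaks, and in the lower 50% by signal in 14.4%, 8.24% and 9.75%, so lost peaks stood highest each time. The G-box CACGTG was less frequent in both sets, with 4.70% of gained, 6.43% of lost and 9.83% of retained peaks. Within 30 to 35% GC it was in 4.05% of gained (3.05 to 5.36%), 2.92% of lost and 4.50% of retained peaks (4.06 to 4.99%). The gained and retained intervals overlap there, and gained peaks stood above lost ones.

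The site II element TGGGCC, a site of TCP factors at growth and ribosome genes, was rare among gained peaks, with 4.41% (3.75 to 5.18%) against 14.0% of lost (13.1 to 14.9%), 19.7% of retained 24 h peaks and 18.8% of all peaks. Within 30 to 35% GC it was in 4.32%, 8.58% and 13.4%, and in the lower 50% by signal in 4.51%, 12.9% and 20.1%, with 15.9% in retained dark peaks of that range. With reversed letters, CCGGGT, the shares were 1.11%, 1.59% and 1.52%. These letters hold the pair CG, which TGGGCC lacks, so they match it in base composition only. Of the 748 lost peaks with the element 81.4% were peaks in the LD control. The TATA box was in 30.2% of gained, 22.0% of lost and 24.6% of retained peaks, and within 30 to 35% GC in 28.8%, 29.2% and 31.0%. The I-box GATAAG was in 11.8%, 8.88% and 11.8%, and the auxin response element TGTCTC in 8.63%, 11.2% and 9.24%. A match is a description of the letters in a peak and shows no bound factor.

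**Figure D5:**
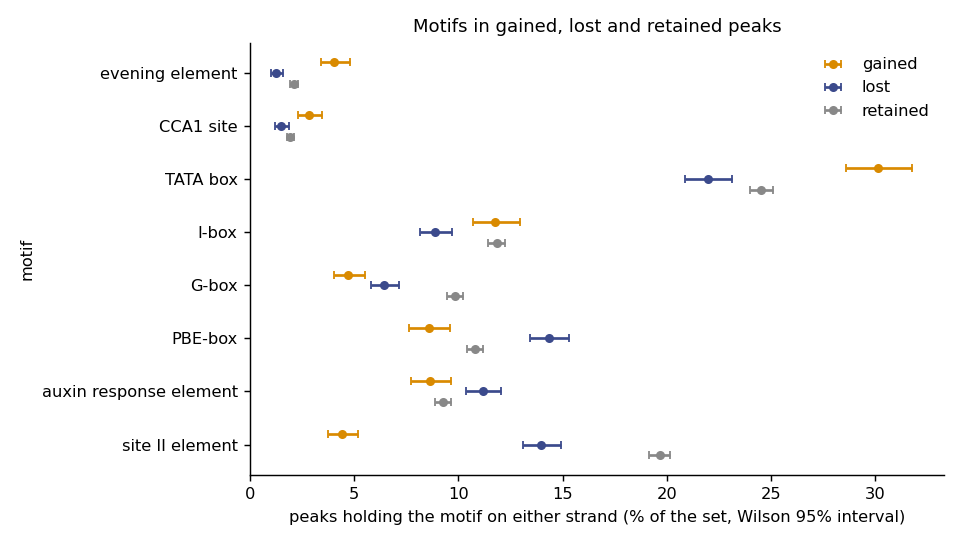
Percent of gained, lost and retained 24 h peaks that hold each of 8 motifs on either strand of their 150 bp, with 95% Wilson intervals. The evening element and the TATA box stand highest in gained peaks, the PBE-box and the auxin response element in lost peaks, and the site II element and the G-box in retained peaks.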

How the data were processed

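DNase I-seq was deposited for 14 samples (7 libraries, each entered once as SE and once as PE with byte-identical peak files and counted once); 6 RNA-seq samples are not analysed here. Bowtie 0.12.7, CASAVA 1.8.2 and the TAIR10 build are named in the submitters' processing notes. Not given in the sources used here are the peak caller, its threshold, read depths and filters, so precision can be described only by the lists of 26712 and 28917 peaks, which cover 4.01 and 4.34 Mb. The deposited narrowPeak files hold the authors' signal per peak, a whole number of no stated normalization, used only to rank peaks within a list, and the authors' −log10 p-value, which ends at 324 and was not used for ranking. At least 99.9% of peaks are 150 bp wide.

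Overlap, promoter windows, locations and motifs were computed with Python 3.11.15, pandas 2.3.3, NumPy 2.4.6 and SciPy 1.17.1, and the overlap code was tested on simulated data. Gene models were RefSeq's for TAIR10.1, whose nuclear coordinates are 1-based and those of TAIR10; shifting peaks by 5000 bp lowered their promoter share from 59.8% to 27.8% in the dark. The nearest gene start was taken among protein-coding genes, and classes were assigned by peak midpoint. A percentile is the share of peaks of the same list with no higher signal. Distances between peaks are edge to edge.

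With 1 library per condition no test was made. Named were, per gene list and direction, up to 5 members by signal percentile, the 15 strongest gained and lost promoter peaks, and 46 genes whatever their values; the stretches, the members of the SAUR-like family and the genes with an evening element were named after their values were seen. Members, lists and motifs were chosen with earlier results of these data known. Of 217 distinct peaks at listed or named genes, 206 had every 36-base word once in the genome. Alternatives were a stricter overlap, a distance of 150 bp, the upper 50% by signal, equal list lengths, a narrow promoter window, wider motif windows and, added after seeing the data, GC range and weak peaks alone.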

Additional observations from a re-analysis of the deposited data

How the results depend on the processing

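Requiring 75 shared bases raised the counts to 6073 gained and 8277 lost peaks and to 4039 and 4852 genes, with 52.28% of lost peaks in promoter windows. In the upper 50% by signal 469 gained and 888 lost peaks remained to be counted, at 314 and 517 genes, with 50.45% of lost peaks in promoter windows. A window of 500 bp upstream to 100 bp downstream held 41.85% of gained and 30.27% of lost peaks, and gave 1596 and 2100 genes. With no peak of the other list allowed within 150 bp there were 2462 gained and 4371 lost peaks at 1626 and 2454 genes. Lists of equal length gave 3976 and 3968 peaks at 2577 and 2278 genes, so there more genes gained than lost, the reverse of 2044 and 3022. In all settings run, a larger share of gained than of lost peaks lay in promoter windows.

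Of 300 counts for gene lists and families under these settings 197 were within 1.5 times the count reported. The 7 antenna genes with gained peaks and the 6 SAUR19 to SAUR24 genes with lost peaks both became 0 in the upper 50% by signal, and under the other settings they were 7 to 9 and 6. Of 82 motif shares 27 stayed within the interval reported. In 300 bp windows the evening element was in 8.06% of gained and 3.93% of lost peaks, the PBE-box in 14.6% and 19.8%, and the site II element in 6.54% and 16.4%.

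No paired analysis was possible because each condition has 1 library and the numbered entries hold identical files; for the same reason no alternative leaves out a replicate. Most peaks of both sets are weak, and read depth, which is not known, limits what is listed at that level. The submitters' design text says that some samples of the series were cut down to equal read depth, without saying which, so whether the dark and 24 h lists rest on equal depth is not known; the part of depth in the counts was not tested.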

Other observations

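Other families counted by product name, chosen after seeing the data, stood nearer to the background for lost peaks. There the SAUR-like family had 42.3% and all genes 11.0%. For gained peaks, with 7.45% of all genes, this did not hold: F-box family proteins stood lower than the SAUR-like family (3.85%). C1 domain proteins gained promoter peaks at 19 of 141 members (13.5%) and lost them at 13 (9.22%). Those with a promoter peak numbered 64 in the dark, 75 after 24 h and 78 in the LD control. Integrase-type (AP2/ERF) factors gained at 11 of 84 (13.1%) and lost at 12 (14.3%). Cytochrome P450 proteins gained at 19 of 218 (8.72%) and lost at 15 (6.88%), and TIR-NBS-LRR resistance proteins gained at 7 of 72 (9.72%) and lost at 4 (5.56%). F-box family proteins gained at 3 of 154 (1.95%) and lost at 15 (9.74%). Pentatricopeptide repeat proteins, which act on organelle RNA, gained at 10 of 234 (4.27%) and lost at 32 (13.7%).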
